A study of Mus musculus with 8 samples.

Results

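The aminoacyl tRNA synthetase genes were followed in MLP-29, a line of liver progenitor cells from mouse, through a time course of hepatocyte growth factor (HGF). Members were taken by symbol: every array probe whose annotated gene carries the 1-letter amino acid code followed by ars, with or without an ending of 1, 2, l, l2 or 3, together with Farsa, Farsb and Eprs. This gave 34 genes read by 56 probes, out of 16593 genes named on an array of 25697 probes. Of these genes, 15 have a symbol ending in 2, the usual mark of the mitochondrial enzyme, and 19 do not. The control group held MLP-29 cells kept in control medium, and 3 further groups held cells given recombinant HGF for 1 h, 6 h and 24 h. All 4 groups shared a week of progressive starvation before the stimulation and bovine serum at a low level during it, and their cultures were lysed together. Each group had 2 biological replicates, a and b, from repeats of the whole time course, and each replicate was read on 1 Illumina mouse bead array. There was only 1 set of control cultures, so handling at a given time cannot be told apart from HGF at that time, and the results describe 1 cell line.

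Aminoacyl tRNA synthetases join each amino acid to its own transfer RNA, using ATP, and so supply the ribosome with the charged transfer RNAs it decodes. Cytosolic and mitochondrial translation mostly draw on separate enzymes encoded by separate nuclear genes, and several cytosolic enzymes sit in a large multi-synthetase complex held together by the scaffold proteins Aimp1, Aimp2 and Eef1e1. Many of the cytosolic genes are known targets of Atf4, the transcription factor that leads the amino acid response when amino acids run short or the endoplasmic reticulum is stressed, and HGF, acting through the receptor Met, is a growth and motility signal for liver cells.

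Between 45% and 46.3% of the probes were detected on each array (detection p below 0.05), and replicate arrays correlated more closely (0.99 to 0.993) than arrays of different groups (0.965 to 0.987). The labelled cell type was checked by its markers. Of the 7 progenitor and biliary markers on the array, 6 were detected, the keratin genes Krt7, Krt8, Krt18 and Krt19 among them, and Prom1 was not. Of 10 hepatocyte markers only Hnf4a passed, and Alb was not detected on any array. Endothelial markers passed for 1 of 10 (Eng) and stellate markers for 0 of 10. Of 7 haematopoietic markers only Cd14 passed, and Ptprc was not detected on any array. The summed signal of the haematopoietic list was 14000 to 16200 in control, 16900 to 22200 at 1 h, 8610 to 11700 at 6 h and 15400 to 16200 at 24 h. Because 6 of these markers were detected on no array, the sum rests largely on Cd14 and does not measure a cell type. It was lowest at 6 h, where several synthetase genes were lowest too, and a link between them was not tested. In such bulk samples, fewer cells that carry a transcript and less transcript per cell cannot be told apart.

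A gene was tested if a probe of it was detected on both arrays of at least 1 group, and was represented by its brightest such probe. Of the 34 synthetase genes, 30 passed, 18 of them with a symbol not ending in 2 and 12 with one that does. The other 4, Aars2, Hars, Hars2 and Yars2, were not well above background on any array. These are the mitochondrial alanyl and tyrosyl enzymes and both histidyl enzymes. Yars, the cytosolic tyrosyl enzyme, was detected on 1 of 2 control arrays, 2 of 2 at 1 h, 0 of 2 at 6 h and 2 of 2 at 24 h, so it passed through the 1 h and 24 h groups. No change of Yars is given on its own. It was not called in any comparison made here, with or without the replicate block, and it is included in the counts and medians over members unless they are said to leave it out. Cars, the cysteinyl enzyme, was dim but detected on all 8 arrays. The remaining members that passed were detected in every group with the probe used. Tarsl2, counted by its symbol among those ending in 2, encodes a threonyl enzyme that works in the cytosol, and Gars and Kars each encode both a cytosolic and a mitochondrial enzyme.

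Start regions of members are shown because Atf4 acts through a known element, and a link between the element and the changes below was not tested. RefSeq windows of 300 bases (build GRCm38.p6, 250 before to 50 after an annotated transcript start) were at hand for 25 of the 34 members. They were searched on both strands for TGATGNAAN, where N is any base, the core letters of the element that C/EBP and ATF proteins bind together. Of the 12 members with a window and a symbol not ending in 2, 5 held a match, and of the 13 with a symbol ending in 2, 0 did. The share was 4.5% over all 27025 genes with a window and 31.2% over the 32 amino acid response genes with one. The matching members are Aars, Gars, Iars, Tars and Yars, and the stretch from 150 bases before to 30 after their start is printed below on the strand of the gene, with each match in capitals. Matches on the opposite strand therefore read as the reverse complement, which was so in all but Yars. Aars lies at chr8:111033692-111033871 (+ strand), Gars at chr6:55037851-55038030 (+ strand), Iars at chr13:49681980-49682159 (+ strand), Tars at chr15:11399629-11399808 (- strand) and Yars at chr4:129189753-129189932 (+ strand).
Aars: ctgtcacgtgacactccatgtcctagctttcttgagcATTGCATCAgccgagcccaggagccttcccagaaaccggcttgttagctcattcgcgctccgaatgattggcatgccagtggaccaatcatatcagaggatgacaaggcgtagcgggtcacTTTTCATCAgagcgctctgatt
Gars: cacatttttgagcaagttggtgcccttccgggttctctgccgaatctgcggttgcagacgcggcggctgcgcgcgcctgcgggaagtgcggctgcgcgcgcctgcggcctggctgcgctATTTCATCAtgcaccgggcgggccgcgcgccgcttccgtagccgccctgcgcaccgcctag
Iars: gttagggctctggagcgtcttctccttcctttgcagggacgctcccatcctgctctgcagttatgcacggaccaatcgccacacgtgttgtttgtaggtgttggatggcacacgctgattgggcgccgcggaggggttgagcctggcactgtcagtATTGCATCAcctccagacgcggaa
Tars: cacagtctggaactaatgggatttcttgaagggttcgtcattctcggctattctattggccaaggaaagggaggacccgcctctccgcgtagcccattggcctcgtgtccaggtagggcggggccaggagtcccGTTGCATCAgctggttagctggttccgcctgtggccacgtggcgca
Yars: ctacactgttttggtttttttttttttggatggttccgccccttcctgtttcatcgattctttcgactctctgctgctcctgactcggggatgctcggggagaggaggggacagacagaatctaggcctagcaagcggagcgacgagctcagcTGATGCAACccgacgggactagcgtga
In Aars the matches began at base -113 and base 9 counted from the transcript start, in Gars at -31, in Iars at 7, in Tars at -16 and in Yars at 4. A match describes letters and is not a measured binding site. Of the genes below that were lower at 6 h, Mars1 and Sars had a window without a match, and Vars had no window in the table used. From 6 h to 24 h, Aars and Iars were called higher, and so were Mars1 and Sars. Gars (limma adjusted p = 0.0862) and Tars (limma adjusted p = 0.173) held a match and were not called.

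After 1 h of HGF, 1 synthetase gene differed from control by the test used. Of 30 tested members, 0 were called higher and 1 lower, where 2.63% of all 8183 genes tested were called higher and 2.16% lower. Calls here and below are those of limma at a Benjamini-Hochberg adjusted p below 0.05 over all 8183 genes, with 2 arrays per group, and changes are differences of normalized log2 signal ± SE. The gene called was Pars2, the mitochondrial prolyl enzyme. Its log2 signal was 8.10 and 7.79 in control a and b, 6.80 and 6.70 at 1 h, 8.01 and 7.74 at 6 h and 7.63 and 7.77 at 24 h. Both 1 h arrays lay below all others, and the 6 h arrays overlapped those of control and of 24 h. The change at 1 h was -1.20 ± 0.16 (limma adjusted p = 0.00727), a signal 2.29 times higher in control, and from 1 h to 6 h the signal rose by 1.13 (adjusted p = 0.00383). A dimmer probe of the gene gave -0.33 ± 0.25 at 1 h (adjusted p = 0.534), so the size rests on the brighter probe. Without control a the adjusted p was 0.0586, and without the 1 h array b it was 0.058.

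The next lowest member at 1 h was Vars, the cytosolic valyl enzyme. Its log2 signal was 12.40 and 12.20 in control, 11.81 and 11.75 at 1 h, 11.68 and 11.74 at 6 h and 12.14 and 12.08 at 24 h. The arrays at 1 h and 6 h lay below all control and 24 h arrays. The 1 h change was -0.51 ± 0.12 with limma adjusted p = 0.0592, and 0.0386 with the replicate letter as a block, so its call at 1 h depended on that choice. Its other kept probes, each tested on its own, gave -0.17 ± 0.17 (adjusted p = 0.644) and 0.23 ± 0.36 (adjusted p = 0.777) at 1 h, and neither was called. Farsa, a subunit of the cytosolic phenylalanyl enzyme, had the highest 1 h change among members, 0.53 ± 0.19 (adjusted p = 0.171), from log2 signals of 7.51 and 7.71 in control and 8.37 and 7.91 at 1 h. The other subunit, Farsb, differed by -0.11 ± 0.12.

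**Figure D1:**
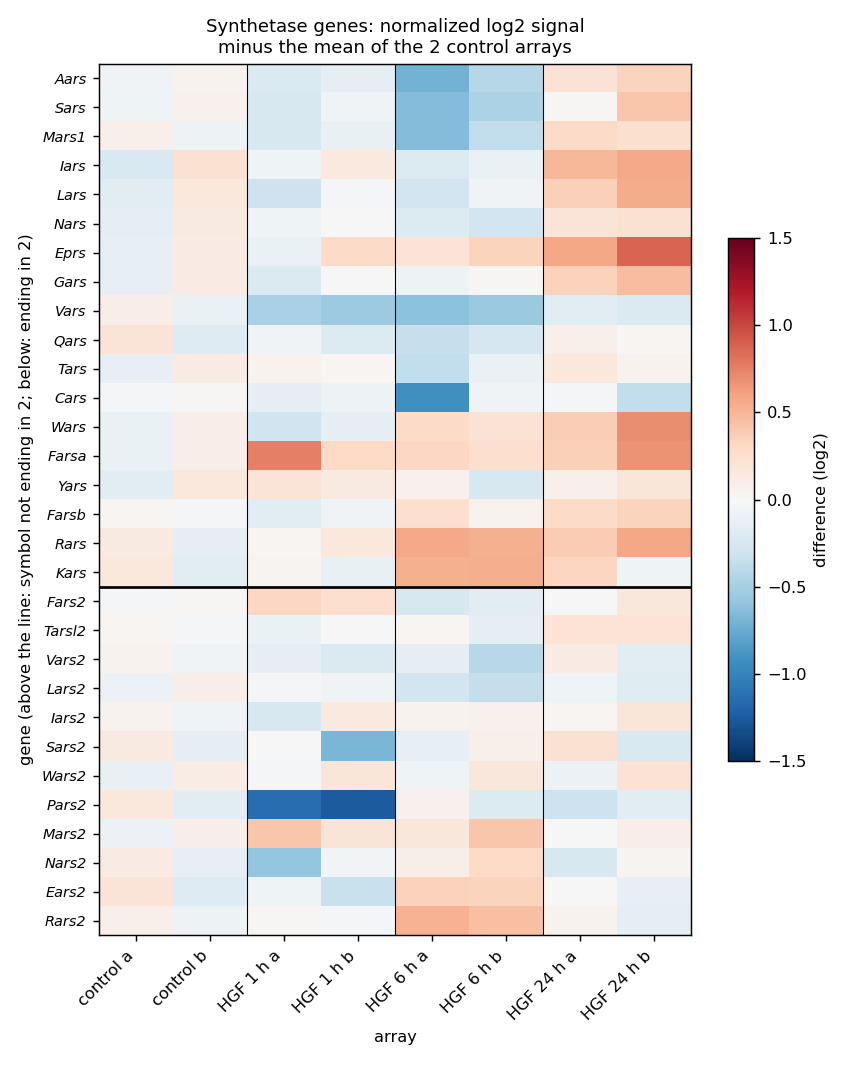
Each of the 30 tested members (rows) on each of the 8 arrays (columns), as log2 signal minus the mean of the 2 control arrays, with red higher and blue lower. Aars, Sars and Mars1 were blue on both 6 h arrays, Pars2 was blue on both 1 h arrays, and most members above the line were red at 24 h.

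After 6 h the members went in opposite directions. The genes of 4 cytosolic enzymes fell, Aars (alanyl), Mars1 (methionyl), Sars (seryl) and Vars (valyl), and the genes of the arginyl enzymes, cytosolic Rars and mitochondrial Rars2, rose. That is 2 members higher (6.67%) and 4 lower (13.3%) of 30, where 9.28% of all genes were called higher and 12.1% lower, so the share of members called was near that of the array as a whole. Quantile normalization sets the zero of these changes. With median scaling in its place the median gene itself lay at -0.16 at 6 h, all genes split into 322 higher and 963 lower in place of 759 and 993, and the members into 0 higher and 4 lower.

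Among the genes that fell, Aars had a log2 signal of 12.81 and 12.91 in control, 12.64 and 12.73 at 1 h, 12.15 and 12.43 at 6 h and 13.08 and 13.19 at 24 h. The groups did not overlap, with 6 h lowest and 24 h highest. Its change at 6 h was -0.56 ± 0.14 (limma adjusted p = 0.0254), a signal 1.48 times higher in control. Sars stood at 11.74 and 11.87 in control, 11.56 and 11.75 at 1 h, 11.16 and 11.33 at 6 h and 11.82 and 12.22 at 24 h. The 6 h arrays lay below the rest, and the remaining groups overlapped in part. Sars changed by -0.56 ± 0.16 (adjusted p = 0.0465) with the brighter probe, and by 0.11 ± 0.25 with a dimmer one, which was not called.

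Mars1 stood at 12.15 and 12.00 in control, 11.83 and 11.96 at 1 h, 11.42 and 11.71 at 6 h and 12.36 and 12.31 at 24 h. As in Aars, the 6 h arrays were lowest and the 24 h arrays highest, without overlap. Its change was -0.51 ± 0.14 (limma adjusted p = 0.0396), and its other probe, tested on its own among all probes kept, gave -0.67 ± 0.14 (adjusted p = 0.0157). Vars changed by -0.59 ± 0.12 (adjusted p = 0.0147) with the probe used, while its other probes gave -0.24 ± 0.17 and 0.42 ± 0.36 and were not called. The isoleucyl enzyme gene Iars showed the reverse arrangement, since the probe used gave -0.15 ± 0.17 and another bright probe -0.55 ± 0.14 (adjusted p = 0.0311).

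Among the genes that rose, Rars2 had a log2 signal of 10.45 and 10.30 in control, 10.39 and 10.34 at 1 h, 10.90 and 10.83 at 6 h and 10.43 and 10.24 at 24 h. Both 6 h arrays lay above the 6 others, which overlapped. The change was 0.49 ± 0.12 (limma adjusted p = 0.0306), a signal 1.4 times that of control, and the other detected probes gave 0.62 ± 0.13 (adjusted p = 0.0144) and 0.48 ± 0.12 (adjusted p = 0.031). Rars stood at 12.09 and 11.82 in control, 11.99 and 12.11 at 1 h, 12.52 and 12.49 at 6 h and 12.34 and 12.54 at 24 h. The 6 h and 24 h arrays lay above those of control and 1 h. Rars changed by 0.55 ± 0.14 at 6 h (adjusted p = 0.0307), and its other probe by 0.45 ± 0.15 (adjusted p = 0.0717).

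Kars, the lysyl enzyme gene, stood at 10.41 and 10.09 in control, 10.29 and 10.14 at 1 h, 10.78 and 10.79 at 6 h and 10.57 and 10.19 at 24 h. The 6 h arrays were the highest. Its change of 0.54 ± 0.17 had limma adjusted p = 0.0585, and 0.0234 with the replicate block. The 22 further members with a change at 6 h lay between -0.50 ± 0.26 (Cars, whose 6 h arrays read 6.05 and 6.92) and 0.34 ± 0.16 (Ears2, the mitochondrial glutamyl enzyme), and none was called. The 6 calls at 6 h rested on few arrays. Leaving out either control array or either 6 h array removed most of these calls. With median scaling, Rars changed by 0.45 (adjusted p = 0.151) and Rars2 by 0.32 (adjusted p = 0.323), so neither rise was called.

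**Figure D2:**
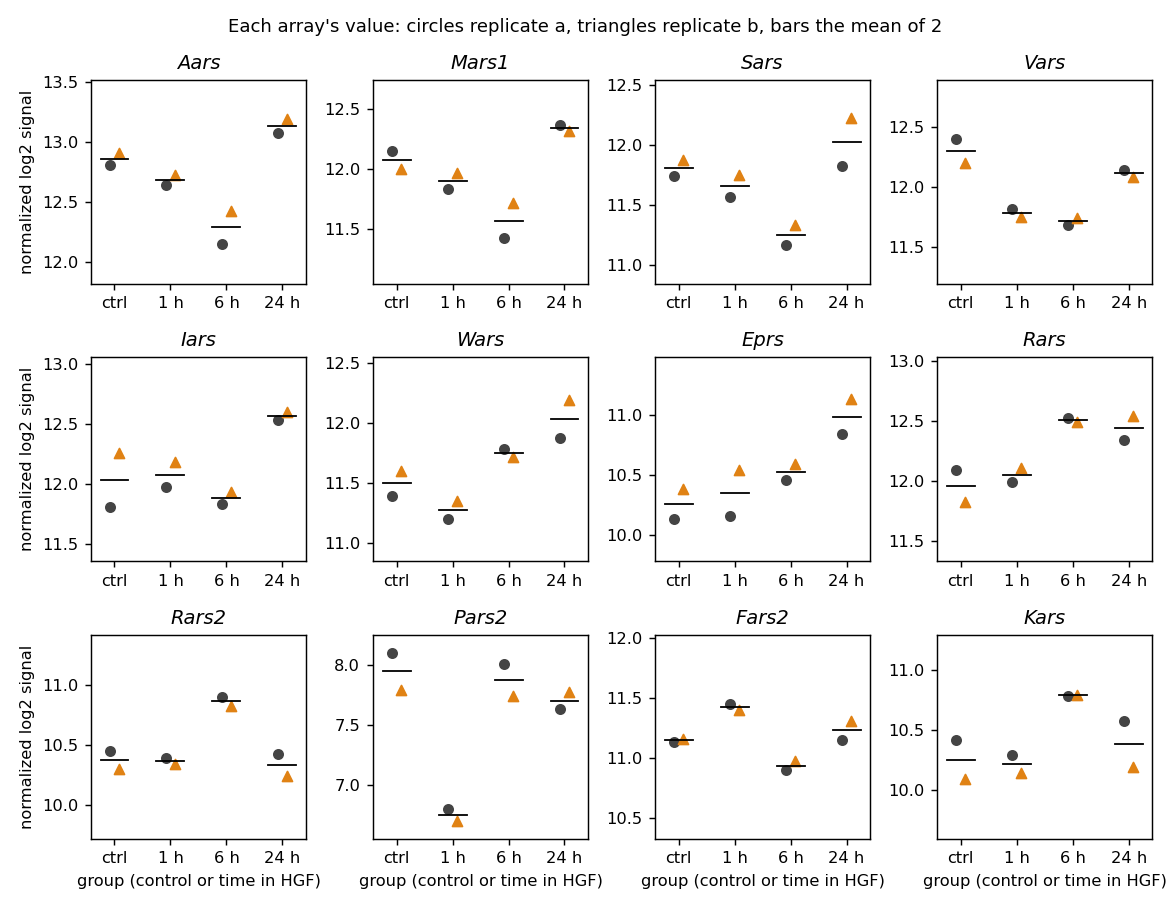
Normalized log2 signal of 12 synthetase genes on each array, by group (control, then 1 h, 6 h and 24 h of HGF), with circles for replicate a, triangles for replicate b and bars for the mean of 2 arrays. All panels span the same range of log2 units. Aars, Mars1 and Sars dip at 6 h where Rars2 and Kars peak, and Rars is raised at both 6 h and 24 h.

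At 24 h no synthetase gene was called against control, and 22 of the 30 tested had a mean above it (21 of 29 without Yars). Over all genes that held for 3821 of 8183. By symbol it held for 16 of 18 members not ending in 2 and for 6 of 12 ending in 2. The count of calls was 0 of 30 in either direction, and 0% of all genes were called higher and 0% lower by limma. At an unadjusted p below 0.05, 8 members were higher and 0 lower, where 665 and 961 of all 8183 genes were. The 8 were Eprs, Farsa, Farsb, Gars, Iars, Lars, Rars and Wars, all with symbols not ending in 2. With the replicate letter as a block, 1 member was called higher and 0 lower, against 1.99% and 3.39% of all genes.

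The member called with the block was Eprs, the joint glutamyl and prolyl enzyme of the cytosol. Its log2 signal was 10.13 and 10.38 in control, 10.16 and 10.54 at 1 h, 10.46 and 10.59 at 6 h and 10.84 and 11.13 at 24 h. Both 24 h arrays lay above all others, and replicate b was higher than replicate a in every group. The change was 0.73 ± 0.18, or 1.66 times control, with limma adjusted p = 0.111 without the block and 0.0257 with it. The dimmer probe of Eprs gave 1.26 ± 0.44 (adjusted p = 0.178).

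Wars, the cytosolic tryptophanyl enzyme, was read by 4 probes. With the probe used, its log2 signal was 11.39 and 11.60 in control, 11.20 and 11.35 at 1 h, 11.78 and 11.71 at 6 h and 11.87 and 12.19 at 24 h. The 24 h arrays were the highest and the 1 h arrays the lowest, without overlap. At 24 h the probes gave changes of 0.54 ± 0.15, 0.88 ± 0.14, 0.92 ± 0.24 and 1.20 ± 0.31, and none was called against control (limma adjusted p from 0.0747 to 0.143). Among members with symbols ending in 2, the changes at 24 h ran only from -0.24 (Pars2) to 0.21 (Tarsl2).

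**Figure D3:**
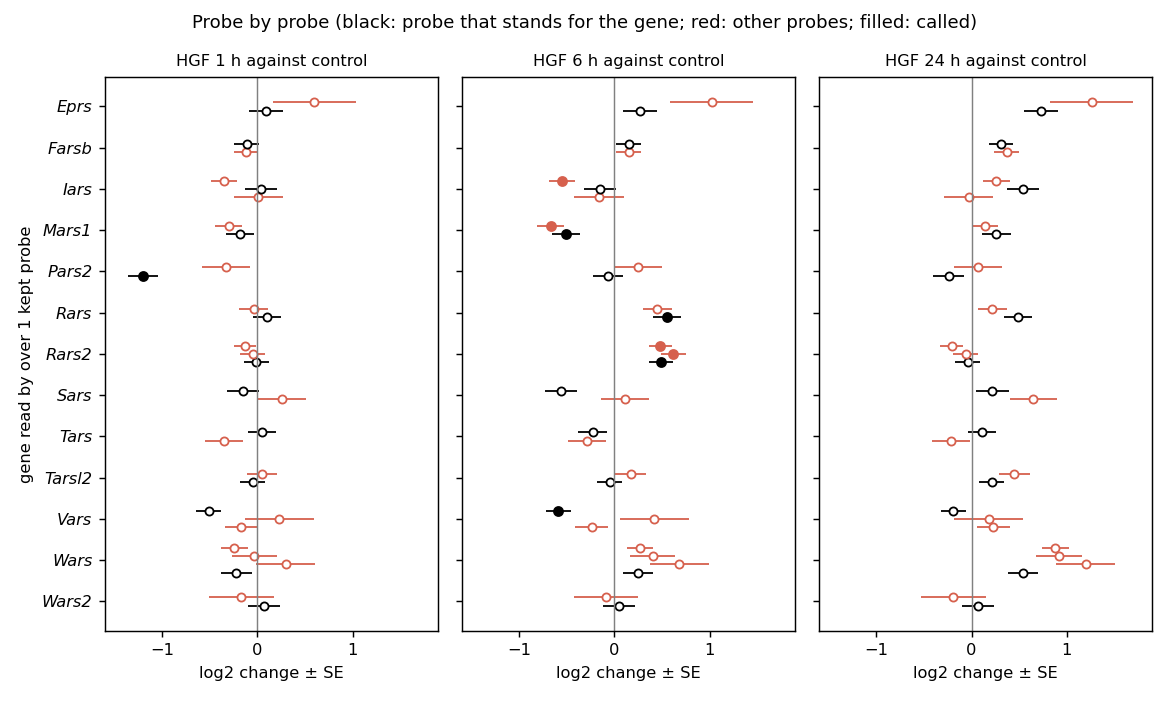
Change against control (log2 ± SE) for every kept probe of the genes read by over 1 kept probe, at 1 h, 6 h and 24 h, each probe tested on its own over all kept probes. Rars2 and Mars1 moved alike with each of their probes at 6 h, Pars2 at 1 h and Vars at 6 h only with the probe in black, and the Sars probe in black falls just short of the threshold in this fit.

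The times were also compared with each other directly. From 6 h to 24 h, 4 members rose and 1 fell, where 6.94% of all genes rose and 6.34% fell. Those that rose were Aars by 0.84 ± 0.14 (limma adjusted p = 0.00902), Sars by 0.78 ± 0.16 (adjusted p = 0.0211), Mars1 by 0.77 ± 0.14 (adjusted p = 0.0132) and Iars by 0.69 ± 0.17 (adjusted p = 0.0345). The signal of Aars was 1.79 times higher at 24 h than at 6 h. For all 4 genes both 24 h arrays lay above both 6 h arrays, as for 2522 of all 8183 genes. Iars had log2 signals of 11.81 and 12.26 in control, 11.97 and 12.18 at 1 h, 11.83 and 11.93 at 6 h and 12.53 and 12.60 at 24 h. Its 24 h arrays were above all others, and the control arrays spanned those of 1 h and 6 h. A second bright probe of Iars rose by 0.82 ± 0.14 (adjusted p = 0.0121). The gene that fell was Rars2, by 0.53 on the log2 scale (adjusted p = 0.0307), which left it at -0.04 ± 0.12 from control.

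With the replicate letter as a block, 8 members rose and 1 fell from 6 h to 24 h, where 794 and 786 of all 8183 genes did. The 4 added were Eprs, Gars (glycyl), Lars (leucyl) and Nars (asparaginyl), with changes of 0.46, 0.43, 0.62 and 0.46. With median scaling the split was 5 higher and 0 lower, and that of all genes 454 and 209 in place of 568 and 519. Leaving out the 6 h array a or the 24 h array b left 0 calls, and leaving out the 6 h array b or the 24 h array a left 2.

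From 1 h to 6 h, 2 members rose and 1 fell, where 8.33% of all genes rose and 9.04% fell. Pars2 and Rars2 rose, Rars2 by 0.50 ± 0.12 (limma adjusted p = 0.0343). Fars2, the mitochondrial phenylalanyl enzyme, fell by 0.49 on the log2 scale (adjusted p = 0.0283). Its log2 signal was 11.13 and 11.16 in control, 11.45 and 11.40 at 1 h, 10.90 and 10.97 at 6 h and 11.15 and 11.31 at 24 h. The 1 h arrays were its highest and the 6 h arrays its lowest, with control and 24 h between them. With the block, 5 members rose and 3 fell, where 943 and 1029 of all 8183 genes did. Median scaling left 1 higher and 0 lower, and a split of all genes of 258 and 455 in place of 682 and 740. Without the 1 h array a, the 1 h array b or the 6 h array a, 1 member was called.

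From 1 h to 24 h, 2 members rose and 0 fell, where 3.79% of all genes rose and 4.85% fell. They were Pars2, by 0.96 ± 0.16 (limma adjusted p = 0.0126), and Wars, by 0.76 ± 0.15 (adjusted p = 0.0246), whose next brightest probe rose by 1.12 ± 0.14 (adjusted p = 0.00547). With the block 7 members rose, and without either 1 h array or either 24 h array 0 were called. Of all 8183 genes, 529 rose and 634 fell from 1 h to 24 h with the block. Over the 3 times together, a moderated F test called 8 members, Aars, Mars1, Pars2, Rars, Rars2, Sars, Vars and Wars, which is 26.7% of the 30, against 23.6% of all genes. With the block it called 13, and leaving out 1 array left 1 (the 6 h array a or the 24 h array b), 6 (control b), or 3 or 4 (any other). The comparisons against control share the control arrays, and those between times share the arrays of a time, so their values are not independent of each other.

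**Figure D4:**
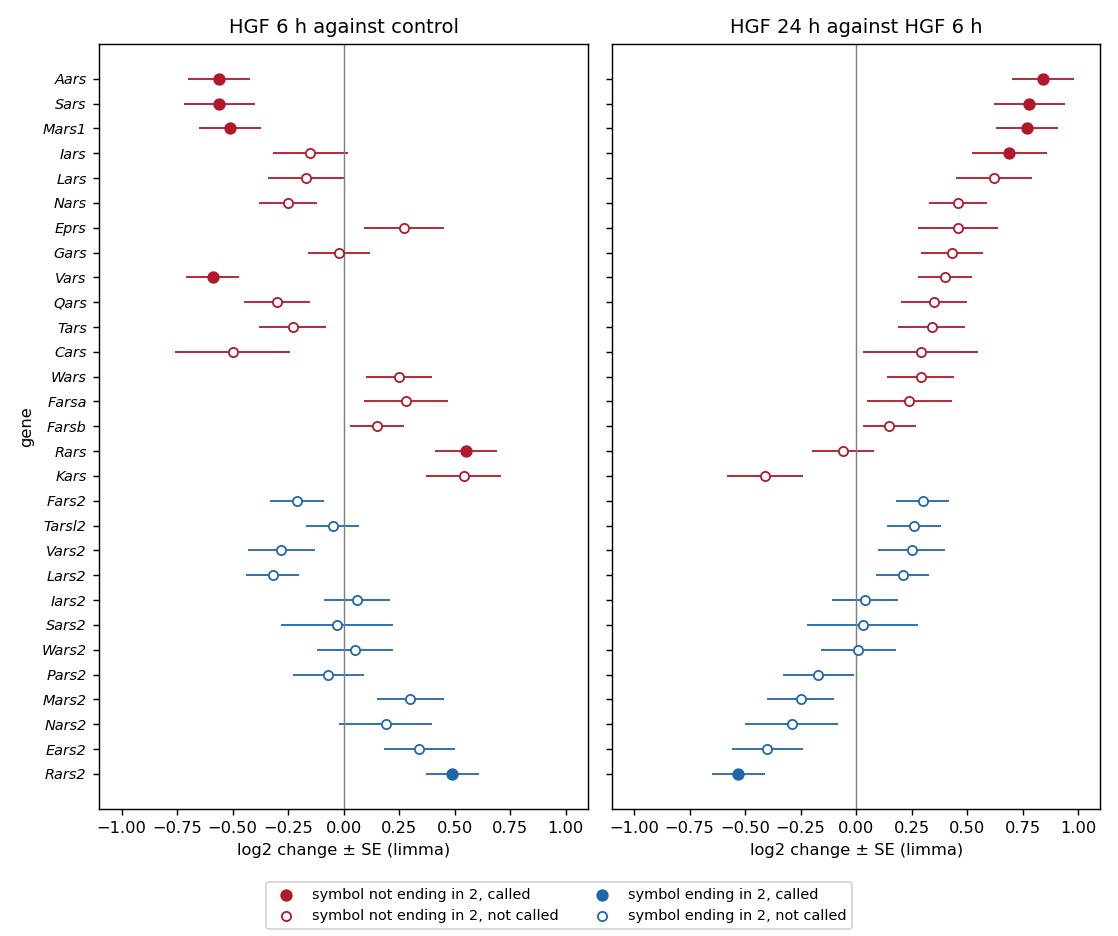
Change of each member (log2 ± SE from limma) from control to 6 h and from 6 h to 24 h, with filled points for genes called at an adjusted p below 0.05, red for symbols not ending in 2 and blue for those ending in 2. Yars is left out because it was not above background at 6 h. Both panels use the 6 h arrays, so a low 6 h value moves a gene left in one panel and right in the other.

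Cytosolic and mitochondrial members differed in where their medians lay, and no test was made of a median over members. The classes also differed in brightness. Among symbols ending in 2, Nars2, Sars2, Mars2 and Pars2 had mean control log2 signals of 6.89, 7.21, 7.84 and 7.94. Among the others Cars (6.98) and Farsa (7.61) were dim too. Changes of dim genes are understated by the offset, and the share of brightness in the gap between classes was not tested. The 18 members whose symbol does not end in 2 had a median change of -0.11 at 1 h, -0.16 at 6 h and 0.27 at 24 h. Without Yars, an alternative chosen after seeing the data because that gene was not above background at 6 h, the 17 left had -0.11, -0.17 and 0.28. The 12 ending in 2 had -0.04, 0.01 and -0.01, and all genes tested -0.05, -0.03 and -0.02. With median scaling the 6 h medians were -0.28 and -0.15, where all genes had -0.16, so the sign of the latter group at 6 h turned with the scaling. The 6 h median of the former turned to 0.03 without control b. Sorted by where the enzyme works, leaving out Gars and Kars, the 17 cytosolic members had -0.11, -0.17 and 0.26 (-0.11, -0.20 and 0.27 for 16 without Yars), and the 11 mitochondrial members -0.04, 0.05 and -0.03.

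From 6 h to 24 h, 15 of the 17 members with symbols not ending in 2, Yars left out, had a positive change, with a median of 0.40 (16 of 18 and 0.38 with it), where 4183 of all 8183 genes did, with a median of 0.01. The exceptions were Rars (-0.06 ± 0.14) and Kars (-0.41 ± 0.17). Of the 12 ending in 2, 7 had a positive change, with a median of 0.02. By array, the former group, here with Yars, lay at -0.21 and -0.08 at 6 h and at 0.29 and 0.33 at 24 h from the control mean, so the 24 h arrays stood above both control arrays (-0.08 and 0.08), while the 6 h array b equalled control a. The group ending in 2 stayed between -0.05 and 0.07 on all 8 arrays.

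**Figure D5:**
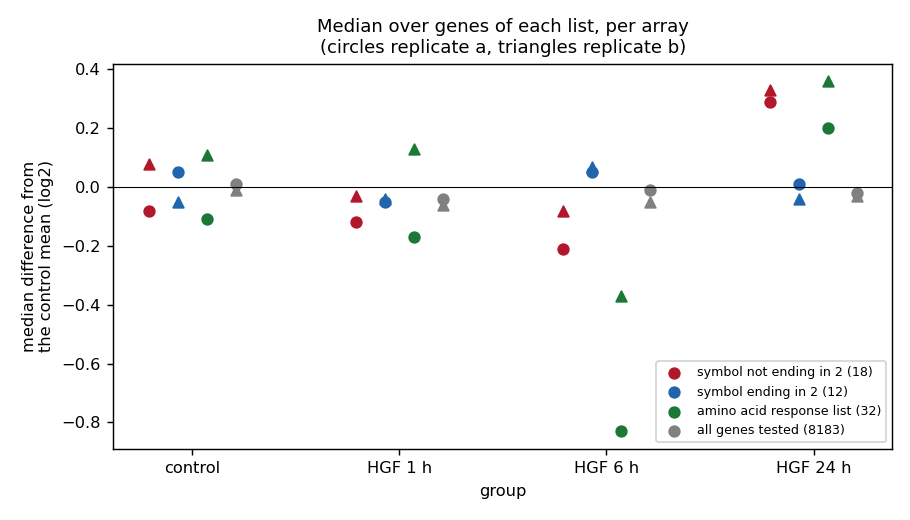
Median over genes of the difference from the control mean (log2), per array, for members by symbol, for the amino acid response list and for all genes tested, with circles for replicate a and triangles for replicate b. The 18 members with symbols not ending in 2 were at 0.29 and 0.33 at 24 h, the amino acid response list was at -0.83 and -0.37 at 6 h, and all genes stayed near 0.

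Enzymes of the multi-synthetase complex and free enzymes overlapped in their values. The 7 tested members that belong to the complex were Eprs, Iars, Kars, Lars, Mars1, Qars and Rars. They had a median change of -0.15 at 6 h and 0.45 at 24 h. The 11 others with a symbol not ending in 2 had -0.23 and 0.22 (-0.24 and 0.25 for 10 without Yars). The lowest and highest 6 h changes within the complex were those of Mars1 (-0.51) and Rars (0.55). In the main fit, then, these genes moved apart though their proteins share the complex. The rise of Rars was not called with median scaling, and the call of Mars1 was lost when most single arrays were left out. Class I and class II enzymes attach the amino acid through unrelated catalytic folds. They had 6 h medians of -0.17 (9 genes) and -0.13 (8 genes) and 24 h medians of 0.26 and 0.25. Eprs, which belongs to both classes, was counted in neither. Without Yars, the 8 class I genes left had -0.23 at 6 h and 0.36 at 24 h. Of the scaffold genes, Eef1e1 had log2 signals of 11.26 and 11.32 in control, 11.21 and 11.39 at 1 h, 12.28 and 12.18 at 6 h and 11.54 and 11.51 at 24 h. It was highest on both 6 h arrays, with a rise of 0.94 ± 0.12 (limma adjusted p = 0.00277). Aimp2 rose by 0.66 ± 0.12 (adjusted p = 0.0106), and Aimp1 differed by -0.14 ± 0.11 (adjusted p = 0.409).

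The amino acid response list, which holds transporters, biosynthetic enzymes and stress factors of the Atf4 pathway and no synthetase genes, had 32 tested genes. At 6 h 0 of them rose and 12 fell (1 and 17 with the replicate block), where 9.28% of all genes rose and 12.1% fell, and the list's median was -0.61. From 6 h to 24 h 22 rose and 0 fell (27 and 0 with the block), where 6.94% of all genes rose and 6.34% fell, and the median was 0.92. Slc6a9, a glycine transporter, had log2 signals of 12.33 and 12.46 in control, 11.99 and 12.14 at 1 h, 11.02 and 11.33 at 6 h and 12.80 and 13.09 at 24 h. Like Aars it was lowest at 6 h and highest at 24 h without overlap, and it changed by -1.21 ± 0.16 at 6 h (limma adjusted p = 0.003). Slc1a4, a neutral amino acid transporter, changed by -1.68 ± 0.24 (adjusted p = 0.00411), and Slc7a11, the cystine transporter, by -1.44 ± 0.35 (adjusted p = 0.0245), with its 6 h array a at 5.70 and b at 6.94, and detected on only 1 of the 2. Atf4 itself, which is largely controlled at translation, differed by -0.18 ± 0.29 at 6 h and by 0.87 ± 0.29 from 6 h to 24 h (adjusted p = 0.0958, and 0.0205 with the replicate block). Asns, asparagine synthetase, differed by -0.29 ± 0.14 (adjusted p = 0.174).

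At 1 h the list gave 2 rises and 0 falls (3 and 0 with the block), where 2.63% of all genes rose and 2.16% fell. Both were transcription factor genes, Atf3 by 5.09 ± 0.48 (limma adjusted p = 0.00138) and Cebpb by 1.18 ± 0.12 (adjusted p = 0.00179), and 0 synthetase genes were called higher at that time. Atf3 was not well above background on either 6 h array. At 24 h 0 genes of the list were called, or 5 higher and 0 lower with the block, and its median was 0.26. Measured from the mean of both control arrays, the list's median was -0.83 on the 6 h array a and -0.37 on the 6 h array b. On that scale control a lay at -0.11 and control b at 0.11, so part of this gap was already present between the control arrays.

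Other genes of transfer RNA metabolism were read at 6 h with quantile normalization, where 9.28% of all genes were called higher and 12.1% lower. Genes of modification (27% higher and 2.7% lower) and of maturation and export (23.5% and 11.8%) were called higher more often than all genes. RNA polymerase III genes (11.8% higher) and charging partners (9.09%) were near the share of all genes. Of 37 tested genes of transfer RNA modification, 10 rose and 1 fell (12 and 1 with the replicate block), with a median of 0.18. Mettl1, which methylates guanine, rose by 0.98 ± 0.13 (limma adjusted p = 0.00359), Trmt61a, which methylates adenine, by 0.97 ± 0.13 (adjusted p = 0.00354), and Osgep, the catalytic subunit of the KEOPS complex, fell by 0.79 on the log2 scale (adjusted p = 0.00422). Of 17 genes of transfer RNA maturation and export, 4 rose and 2 fell, with Elac2, which trims the 3′ end, at 0.83 ± 0.12 (adjusted p = 0.00475). Of 17 RNA polymerase III genes, 2 rose and 1 fell (4 and 2 with the replicate block), and at 1 h 1 fell, Brf2, by 0.66 (adjusted p = 0.0179). Of 11 charging partners, 1 rose, Ppa1, which hydrolyses the pyrophosphate that charging releases, by 0.87 ± 0.13 (adjusted p = 0.00505). Of 8 cytosolic elongation factors and 11 mitochondrial translation factors, 0 were called at 6 h by limma. The receptor gene Met differed by 0.27 ± 0.23 at 6 h (adjusted p = 0.453).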

How the data were processed

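RNA of 8 cultures was hybridised to 1-colour Illumina mouse bead arrays. The authors deposited a table of summary signals, a linear intensity not normalized between arrays, with a detection p-value per probe and array, both as deposited per the file headers. A second deposited table holds the authors' normalized intensity, with column medians of 129.8 to 129.9 and a rank correlation of 1 with the raw columns. The normalization method is not given in the sources at hand, and the table served as an alternative. The submitters' processing notes name GenomeStudio 1.9.0. Every per-sample column was used or held as an alternative.

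Background was removed from the raw intensity by normexp from the detection p-values (offset 16), and the signals were quantile normalized and converted to log2 in limma 3.58.1 (R 4.3.3). The deposited values carry no log2 scale of their own, and changes of dim genes are understated by the offset. Probe names came from the supplied platform annotation (23978 with 1 symbol, 0 with several, 1719 with none), and 23962 matched a current gene table, with 0 symbols changed. Named probes detected (p below 0.05) on both arrays of at least 1 group were kept (11325), which gave 8183 of 16593 genes, each read by its kept probe of highest mean signal.

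Groups followed the labels. All 8 arrays entered lmFit and eBayes with group as the only term (4 residual degrees of freedom), and p-values were adjusted by Benjamini-Hochberg over every gene tested. The procedure was tested on simulated data. The number of arrays limits the precision. Whether 1 letter stands for 1 repeat across groups is implied by the labels and not stated. The gap between replicates a and b correlated across genes at 0.194 to 0.443 for all pairs of groups, so the blocked value stands beside a printed gene's result whose call it changes, and beside counts of calls it moves by over 1.5 times.

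The members and gene lists were chosen with earlier results of these data known. Named genes are all members by the symbol rule, a fixed set (the scaffold genes, Met and leading amino acid response genes), and at each time and from each list the up to 3 called genes with the lowest adjusted p, some of which are left out for length. Alternatives changed the scaling, background correction, offset, filters, choice of probe, arrays used, replicate block and threshold. Promoter windows are those of RefSeq on GRCm38.p6.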

Additional observations from a re-analysis of the deposited data

Results flagged for a closer look

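For 8 of the members, the level differed between times of HGF in a direct test (limma, adjusted over all 8183 genes tested, 2 arrays per group). Between 6 h and 24 h, Aars differed by 0.84, Sars by 0.78, Mars1 by 0.77 and Iars by 0.69 (log2, 24 h higher), and Rars2 by -0.53 (24 h lower). Between 1 h and 6 h, Pars2 differed by 1.13 and Rars2 by 0.50 (6 h higher), and Fars2 by -0.49 (6 h lower). Between 1 h and 24 h, Pars2 differed by 0.96 and Wars by 0.76 (24 h higher). Of all genes, 6.94% were called higher and 6.34% lower from 6 h to 24 h, 8.33% and 9.04% from 1 h to 6 h, and 3.79% and 4.85% from 1 h to 24 h. In each member result named here the arrays of one time lay wholly above those of the other. From 6 h to 24 h that also held for 2522 genes upwards and 2334 downwards of all 8183, so it adds little to a call.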

How the results depend on the processing

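Of 1704 values of single members against control under the alternatives, 1648 stayed on the same side of the threshold. The call was lost in 40, gained in 16 and reversed in 0. For the other named genes the figures were 1579, 47, 21 and 0 of 1647. Most of the member values belong to results that the main fit did not call, which had no call to lose. Calls between times of HGF were not among these values, and their counts are given further on. All 40 losses therefore fell on the members that the main fit called against control. These were Pars2 at 1 h and Aars, Mars1, Rars, Rars2, Sars and Vars at 6 h. Counts of members called moved as follows. At 1 h the count was 2 in place of 1 without background correction, with offset 50, with the authors' normalized intensity, with detection p below 0.01, with detection on all 8 arrays, with the replicate block and at an adjusted p below 0.10. At 6 h it was 0 in place of 6 when only the 2 groups compared entered the fit, which leaves fewer arrays. It was 4 with median scaling, without the filter on dim probes or with the mean of a gene's kept probes. Under each setting that gave 2 at 1 h it was 7. At 24 h it was 1 with the replicate block. From 1 h to 6 h, in place of 3, it was 1 with median scaling or only the 2 groups, 5 with offset 50 or either stricter detection filter, 7 without background correction or with the authors' intensity, and 8 with the replicate block or at 0.10. From 6 h to 24 h, in place of 5, it was 9 without background correction, with the authors' intensity, with the block or at 0.10, and 3 with only the 2 groups. From 1 h to 24 h, in place of 2, it was 6 without background correction, 5 with offset 50, 7 with the authors' intensity, the block or 0.10, and 1 with only the 2 groups. Over all times, in place of 8, it was 4 with median scaling, 5 without the filter or with the mean of a gene's probes, 13 without background correction or with the block, and 14 with the authors' intensity or at 0.10. With median scaling the median of members whose symbol does not end in 2 was -0.28 at 6 h, and of those ending in 2 -0.17 at 1 h and -0.15 at 6 h, where all genes lay at -0.15 and -0.16. The cause of these shifts was not tested. Leaving out 1 array at a time gave 0 to 1 calls at 1 h, 0 to 5 at 6 h, 0 to 0 at 24 h, 1 to 4 from 1 h to 6 h, 0 to 6 from 6 h to 24 h, 0 to 2 from 1 h to 24 h and 1 to 6 over all times. The medians then ran from -0.12 to -0.03, -0.29 to 0.03 and 0.27 to 0.33 for symbols not ending in 2, and from -0.09 to -0.02, -0.04 to 0.10 and -0.05 to 0.02 for those ending in 2, at 1 h, 6 h and 24 h. The slide as a block was not run, because the files name no slide. Leaving out Yars, chosen after seeing the data, moved the medians of members whose symbol does not end in 2 by less than the spread between replicates at 1 h, 6 h and 24 h. Among single members against control, the replicate block changed the calls of Vars at 1 h, Kars at 6 h and Eprs at 24 h. The block also raised the calls over all genes. At 1 h these went from 215 higher and 177 lower to 375 and 365, and at 6 h from 759 and 993 to 1020 and 1330. Changes of dim members such as Cars, Nars2 and Sars2 are limited by signal close to background.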
